A study of Sus scrofa with 12 samples.

Results

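The genes described here are the Wnt ligands, their receptors and the proteins that modulate them at the cell surface and just beneath it, as expressed in the hypothalamus of germ-free (GF) pigs and of pigs colonized with gut microbiota (CG). They were chosen by gene symbol and comprised 18 Wnt ligands, 10 Frizzled receptors, 2 LRP coreceptors, 4 R-spondins, 4 secreted Frizzled-related proteins, 4 Dickkopf proteins, 3 Dishevelled proteins and 2 Axins. That made 47 of the 19256 protein-coding genes measured, with 77 of the 47559 mRNA transcripts. All 47 symbols matched a pig gene in RefSeq (assembly Sscrofa11.1), on whose coordinates every position below is given. WNT4 was not analysed here.

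The pigs were newborn Chinese Bama piglets delivered by hysterectomy from 1 sow and raised in sterile isolators. GF pigs (n = 3) were kept without microbes, and CG pigs (n = 3) received a fecal microbiota transplant on days 3 to 7. The labels list all 6 as males sampled at 45 days, although the study's methods give a slightly younger age, and only a portion of each hypothalamus was sequenced. All the pigs came from 1 litter and the isolator of each pig is not given, so an isolator effect and the effect of colonization cannot be told apart, and p-values measure only the spread between these pigs.

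Wnt proteins are secreted, lipid-carrying signals that bind a Frizzled receptor together with the coreceptor LRP5 or LRP6. The bound receptor recruits Dishevelled and Axin, which stops the Axin-based destruction complex from degrading beta-catenin, and beta-catenin then enters the nucleus and activates genes with TCF/LEF factors. R-spondins strengthen the signal by keeping Frizzled at the cell surface, secreted Frizzled-related proteins bind Wnt outside the cell, and most Dickkopf proteins block the LRP coreceptors. In the vertebrate forebrain these signals pattern the early brain regions, and in the brain as a whole WNT7A and WNT7B act on blood vessels.

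Values are TPM, a transcript abundance that is scaled for transcript length and for library size and keeps no sequencing depth, so the reads behind a value are unknown and no counting interval can be given. Gene TPM summed over the mRNA transcripts were 795583 to 845526 per library in GF pigs, against 793723 to 815901 in CG pigs. Some libraries stood apart. Markers of the hypothalamus summed to 54.0 TPM in GF replicate 1, 1198 in GF replicate 2 and 1098 in GF replicate 3, against 1249 to 2740 in CG pigs. Without OXT, the oxytocin gene, which carried most of the sum in GF replicates 2 and 3, these markers summed to 53.9, 193 and 229 TPM in GF replicates 1, 2 and 3, against 644 to 904 TPM in CG pigs. Markers of the thalamus, which borders the hypothalamus, summed to 1352 TPM in GF replicate 1, 181 in GF replicate 2 and 840 in GF replicate 3, against 246 to 256 in CG pigs. Markers of the anterior pituitary summed to 2.50 to 13.4 TPM in GF pigs, against 262, 26.0 and 5442 TPM in CG replicates 1, 2 and 3. Y-linked genes summed to 0.01 to 0.03 TPM in GF pigs, against 17.2, 19.5 and 0.04 TPM in CG replicates 1, 2 and 3, although every pig is labelled male. Mitochondrial genes summed to 141508 to 150806 TPM in GF pigs, against 66667 to 95828 TPM in CG pigs.

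The Wnt genes added up to 913, 662 and 884 TPM in GF pigs, against 902, 964 and 1016 TPM in CG pigs (replicates 1, 2 and 3, the order used throughout). The group totals overlapped. A single gene, DKK3, made up 38.9% to 51.3% of this total in GF pigs, against 37.6% to 48.0% in CG pigs. DKK3, a secreted Dickkopf relative that is abundant in neurons and not a typical LRP blocker, reached 459, 258 and 454 TPM in GF pigs, against 401, 463 and 382 TPM in CG pigs. Far below it, the next highest mean levels belonged to SFRP2, DVL1, LRP6, DVL3 and FZD3, and 10 genes had a mean under 1 TPM.

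**Figure D1:**
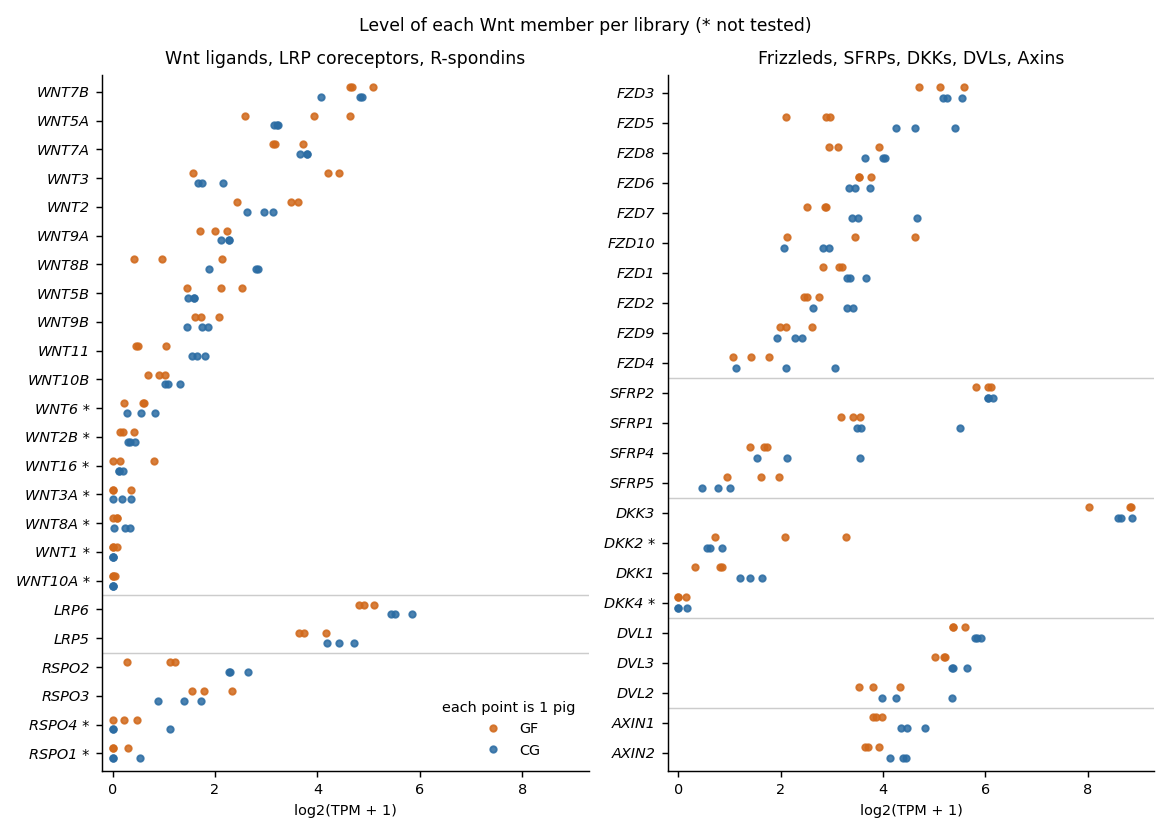
Level of all 47 Wnt genes as log2(TPM + 1) on the x axis, grouped by role, with a point for each GF pig and, just under it, each CG pig (n = 3 each), and an asterisk at genes not tested. DKK3 lies above all others, with 258 to 463 TPM, and the ligands spread down to 0.

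To test the effect of colonization, log2(TPM + 1) of the GF group was set against that of the CG group by limma over the 14641 genes with at least 1 TPM in at least 3 libraries, and p-values were adjusted over all of them by the Benjamini-Hochberg method. Of the 47 Wnt genes, 36 reached this level. FZD5, RSPO2 and WNT11 fell in GF pigs (adjusted p under 0.05), none rose and the other 33 did not pass. Thus 8.33% of the tested Wnt genes passed, against 6.01% of all tested genes (4.93% lower and 1.08% higher in GF pigs), a share close to the background. The same held for the separation of the groups. In 12 of the 36 genes (33.3%) the highest GF value was under the lowest CG value, and in all tested genes this share was 32.8%. The opposite order occurred in 0 of the 36, against 5.42% of all tested genes. At an unadjusted p under 0.05 there were 12 Wnt genes (30.9% of all tested genes reached this), 11 of them lower in GF pigs (background 26.6%) and 1, SFRP5, higher (background 4.31%). With the study's further threshold, a change of 1 or more on the log2 scale, FZD5 and RSPO2 passed, as did 2.89% of all tested genes. The counts therefore do not set the Wnt genes apart, and the results below concern single genes.

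The median log2 fold change of GF over CG was -0.39 over the 36 Wnt genes and -0.23 over all tested genes. Of the 36, 25 (69.4%) lay below 0, against 72.7% of all tested genes. With each library centred on its median gene, 21 of the 36 (58.3%) lay below 0, against 48.7% of all, and the Wnt median was -0.15. The centring added 0.24 to the log2 fold change of every gene. Under that centring the split of all genes that passed turned from 158 higher and 722 lower to 265 higher (1.81%) and 129 lower (0.881%), and of the Wnt genes FZD5 alone passed. Fold changes understate the change of genes at a low level, because 1 TPM was added before the logarithm.

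**Figure D2:**
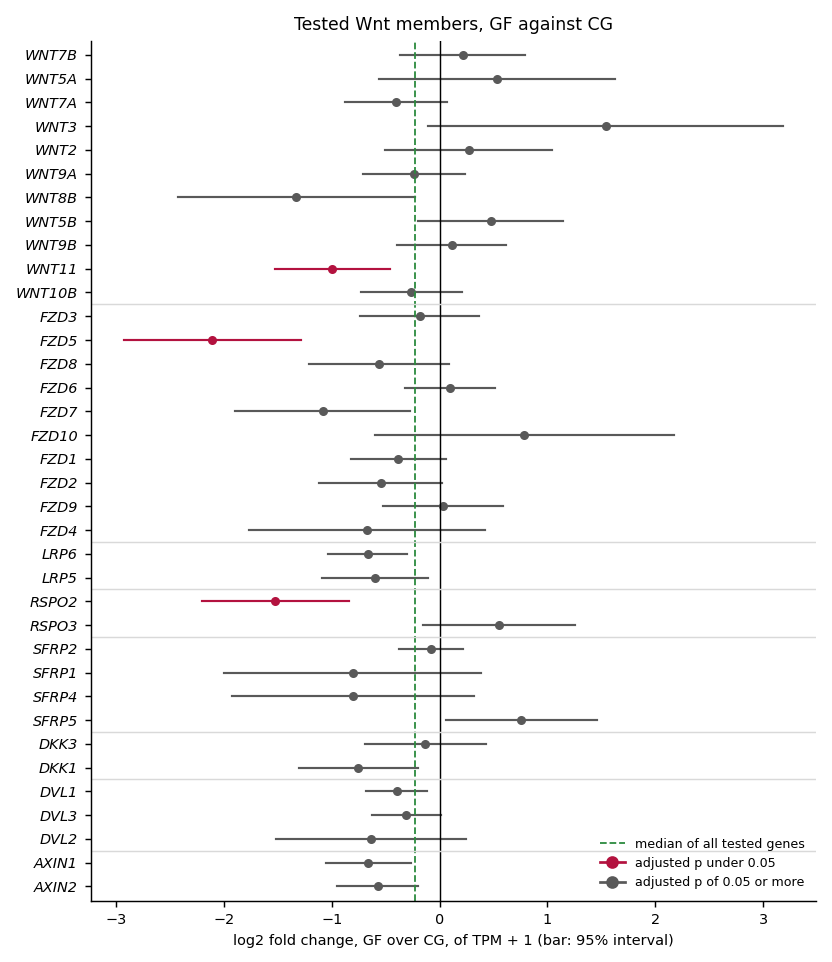
Log2 fold change of GF over CG pigs for the 36 tested Wnt genes, with 95% intervals from limma as lines and a dashed line at the median of all tested genes (n = 3 pigs each). FZD5 (-2.11), RSPO2 (-1.52) and WNT11 (-0.996) passed the adjusted threshold, and the median over all tested genes was -0.23.

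Among the ligands, WNT11 was lower in GF pigs. WNT11, a ligand best known for directing cell movement and polarity without beta-catenin, is annotated on chromosome 9 (10413182 to 10435158). It was found at 0.38, 0.42 and 1.06 TPM in GF pigs, against 2.48, 1.92 and 2.15 TPM in CG pigs. The groups did not overlap, and GF replicate 3 came nearest to the CG pigs. The log2 fold change was -0.996 (SE 0.23, 95% interval -1.53 to -0.46, limma adjusted p = 0.0499), and -0.75 with median-centred libraries. WNT11 no longer passed under any alternative processing or with any 1 library left out, where adjusted p ranged from 0.055 to 0.16. In pieces of tissue such as these, fewer cells of a type and less RNA per cell cannot be told apart.

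WNT8B, whose mouse and zebrafish counterparts mark parts of the developing forebrain including the hypothalamus, was found at 3.40, 0.34 and 0.95 TPM in GF pigs, against 6.15, 5.94 and 2.68 TPM in CG pigs. GF replicate 1 lay above CG replicate 3, so the groups overlapped, and the difference of -1.33 (SE 0.47) did not pass (adjusted p = 0.11). The groups of the vascular ligands overlapped. WNT7B, the ligand with the highest mean level, was found at 24.7, 32.8 and 23.7 TPM in GF pigs, against 27.4, 28.1 and 15.7 TPM in CG pigs. WNT7A was found at 8.03, 12.2 and 7.78 TPM in GF pigs, against 12.8, 12.8 and 11.6 TPM in CG pigs. CG replicate 3 was the lowest library for WNT7B and GF replicates 1 and 3 for WNT7A, and neither passed (adjusted p = 0.60 for WNT7B and 0.22 for WNT7A).

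Several ligands and 1 receptor had their top values in GF replicates 1 and 3, whereas GF replicate 2 was low. WNT3, a ligand that signals through beta-catenin, reached 17.4, 1.96 and 20.4 TPM in GF pigs, against 2.34, 3.46 and 2.18 TPM in CG pigs. GF replicate 2 lay below every CG pig. The log2 fold change of WNT3 was 1.54 (SE 0.70, adjusted p = 0.18), and with 1 library left out it was 1.03 to 2.46. It passed only without GF replicate 2, the GF pig that lay the other way (2.46, adjusted p = 0.012), and adjusted p was 0.29 to 0.40 without each of the other libraries. WNT5A, the prototype of ligands that act without beta-catenin, reached 24.0, 5.01 and 14.4 TPM in GF pigs, against 8.27, 8.36 and 7.87 TPM in CG pigs. Again GF replicate 2 was the lowest of the 6 libraries, and the log2 fold change was 0.53 with all libraries (adjusted p = 0.47). With 1 library left out it was 0.07 (adjusted p = 0.93, without GF replicate 1) to 1.10 (adjusted p = 0.046, without GF replicate 2), and only the removal of GF replicate 2 made it pass.

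The same libraries were high for FZD10, a Frizzled receptor, at 23.6, 3.34 and 10.0 TPM in GF pigs, against 6.13, 6.71 and 3.17 TPM in CG pigs. WNT2 was found at 10.2, 4.41 and 11.2 TPM in GF pigs, against 5.20, 6.75 and 7.78 TPM in CG pigs, and its groups overlapped through GF replicate 2. WNT5B, the close relative of WNT5A, was found at 4.74, 1.73 and 3.34 TPM in GF pigs, against 2.02, 1.77 and 2.03 TPM in CG pigs. None of FZD10, WNT2 and WNT5B passed, with adjusted p of 0.40, 0.62 and 0.30. DKK2, a Dickkopf protein that can block or weakly activate LRP6, was found at 8.65, 0.65 and 3.25 TPM in GF pigs, against 0.48, 0.53 and 0.81 TPM in CG pigs, and was not tested because it reached 1 TPM in GF replicates 1 and 3 only.

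Outside the ligands and receptors, WLS and TCF7L2 also had their top values in GF replicates 1 and 3. WLS, the membrane carrier that takes lipidated Wnt to the cell surface, reached 199.8, 32.1 and 152 TPM in GF pigs, against 61.2, 48.5 and 62.1 TPM in CG pigs. TCF7L2, a nuclear partner of beta-catenin that is strongly expressed in the thalamus, reached 249.8, 40.7 and 165 TPM in GF pigs, against 32.4, 36.1 and 39.4 TPM in CG pigs. GF replicate 2 was the lowest library for WLS, but for TCF7L2 it lay just above every CG pig, so the TCF7L2 groups did not overlap. Neither passed with all libraries (adjusted p = 0.41 and 0.11), and with 1 library left out the log2 fold change was 0.30 to 1.60 for WLS and 1.17 to 2.47 for TCF7L2. Both passed only without GF replicate 2 (adjusted p = 0.015 for WLS and 0.0072 for TCF7L2), and without GF replicate 1 adjusted p was 0.79 for WLS and 0.23 for TCF7L2. These are the libraries in which thalamus markers were high. Of 14 thalamus markers, 11 were higher in GF replicates 1 and 3 than in every CG pig, and AMOTL1, PRKCD and PLEKHG1 were not (log2 fold changes of -0.01, -0.11 and -0.13). That order leaves out GF replicate 2, and the share of all tested genes with it was not computed, so the count has no background. SHOX2, a transcription factor of the thalamus and the marker with the largest difference (4.24), was at 71.9, 1.62 and 65.3 TPM in GF pigs, against 0.18, 0 and 0.59 TPM in CG pigs. All 14 were tested and none passed, with a median log2 fold change of 0.99. GF replicates 1 and 3 were also the highest libraries for the sum of the markers of neurons of all regions, though not for each marker. SYP, SNAP25, SYT1 and NEFL had that order and RBFOX3 did not. ENO2 and STMN2 were lower in every GF library than in every CG library. The neuron markers summed to 2861, 1454 and 2425 TPM in GF pigs, against 2096, 2131 and 1900 TPM in CG pigs. Markers of myelinating oligodendrocytes were highest in GF replicate 2. They summed to 13072, 19002 and 8130 TPM in GF pigs, against 9503, 8321 and 6538 TPM in CG pigs. The part of these markers in the Wnt values was not tested.

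**Figure D3:**
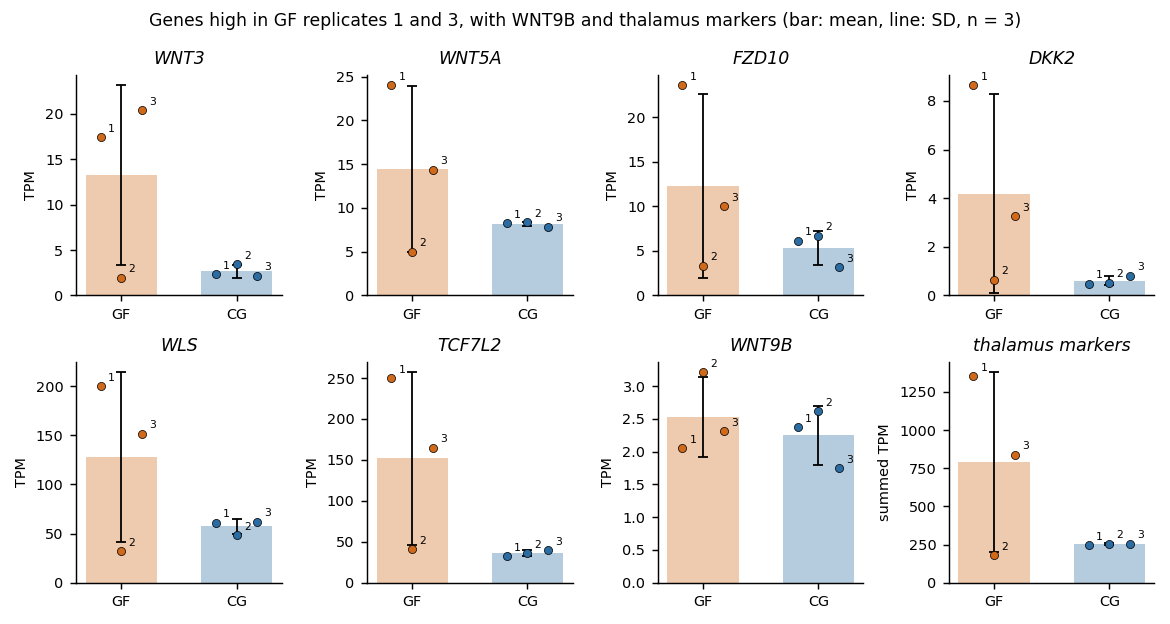
TPM from 0 of Wnt pathway genes high in GF replicates 1 and 3, with WNT9B and the summed thalamus markers, as bars for the mean, lines for the SD and points numbered by replicate in GF and CG pigs (n = 3 each). WNT3 was at 17.4 and 20.4 TPM in those libraries and at 1.96 TPM in GF replicate 2, and the thalamus markers summed to 1352 and 840 TPM in those libraries and to 181 TPM in GF replicate 2.

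The remaining ligands were low. WNT9A was found at 2.27 to 3.70 TPM in GF pigs, against 3.33 to 3.84 TPM in CG pigs, WNT9B at 2.05 to 3.21 TPM in GF pigs, against 1.75 to 2.62 TPM in CG pigs, and WNT10B at 0.61 to 1.04 TPM in GF pigs, against 1.02 to 1.49 TPM in CG pigs. None of these passed (adjusted p of 0.46, 0.75 and 0.41). WNT6, WNT2B, WNT16, WNT3A, WNT8A, WNT1 and WNT10A stayed under 1 TPM in every library and were not tested. WNT1 and WNT10A were listed at 0 in all CG pigs.

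Within 100 kb of each other lay 4 pairs of ligand genes, as Wnt genes are commonly clustered. WNT3 and WNT9B are separated by 27.85 kb on chromosome 12. The GF libraries with high WNT3 did not stand out for WNT9B, which was found at 2.05, 3.21 and 2.31 TPM in GF pigs, against 2.37, 2.62 and 1.75 TPM in CG pigs. WNT9A and WNT3A are 25.63 kb apart on chromosome 2, and WNT6 and WNT10A are 7.84 kb apart on chromosome 15. WNT10B and WNT1 overlap on chromosome 5, so their low values are uncertain.

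Among the receptors, FZD5 fell in GF pigs. FZD5, a Frizzled receptor with roles in eye development in the mouse and frog and expressed in the early mouse hypothalamus, is annotated on chromosome 15 (110913990 to 110921388). It was found at 3.28, 6.36 and 6.86 TPM in GF pigs, against 18.0, 23.7 and 41.2 TPM in CG pigs. The highest GF library lay well below the lowest CG library, and CG replicate 3 was the highest of all. The means were 5.50 ± 1.94 TPM in GF pigs, against 27.6 ± 12.1 TPM in CG pigs (SD, n = 3 each), and the log2 fold change was -2.11 (SE 0.35, 95% interval -2.93 to -1.28, limma adjusted p = 0.032). With median-centred libraries it was -1.86.

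FZD5 passed under every alternative processing tried on genes (adjusted p of 0.036 to 0.0499) and without GF replicate 2 (0.036). It did not pass without any of the other libraries, with adjusted p of 0.074 without GF replicate 1, 0.072 without GF replicate 3, 0.085 without CG replicate 1, 0.15 without CG replicate 2 and 0.060 without CG replicate 3, while the log2 fold change stayed between -2.36 and -1.79. FZD5 has a pair of annotated transcripts and both fell. The more abundant was found at 2.66, 5.26 and 5.83 TPM in GF pigs, against 14.2, 18.7 and 32.4 TPM in CG pigs (a log2 fold change of -2.0, adjusted p = 0.027 over all transcripts). The other was found at 0.62, 1.10 and 1.03 TPM in GF pigs, against 3.78, 4.97 and 8.81 TPM in CG pigs (a log2 fold change of -1.78, adjusted p = 0.026).

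The share of FZD5 among the Frizzled transcripts was lower in each GF library than in each CG library. FZD5 held 3.06%, 8.31% and 6.30% of the summed Frizzled TPM in GF pigs, against 15.0%, 19.0% and 24.8% in CG pigs. FZD3, known for guiding axons and the most abundant Frizzled in each library, held 31.6%, 32.5% and 43.1% in GF pigs, against 29.2%, 29.7% and 27.5% in CG pigs. The level of FZD3 itself overlapped between the groups, at 33.8, 24.9 and 46.9 TPM in GF pigs, against 35.0, 37.0 and 45.6 TPM in CG pigs (adjusted p = 0.62).

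**Figure D4:**
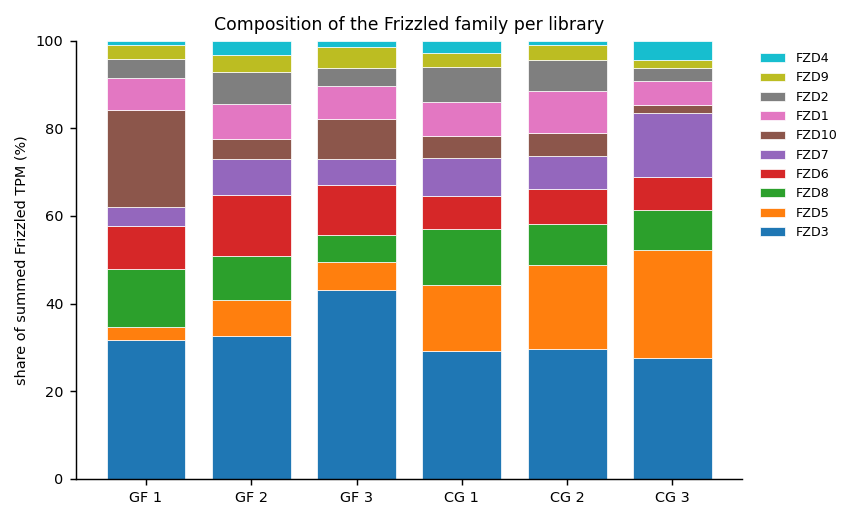
Percent of the summed Frizzled TPM held by each of the 10 Frizzled genes, as stacked bars for the GF libraries and then the CG libraries. FZD5 took 3.06% to 8.31% in GF pigs, against 15.0% to 24.8% in CG pigs, while FZD3 took the most in every library.

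Of the other receptors, FZD7 and FZD1 were lower in every GF library than in every CG library but did not pass. FZD7, a receptor of progenitor cells, was found at 4.74, 6.44 and 6.34 TPM in GF pigs, against 10.3, 9.45 and 24.3 TPM in CG pigs. Its log2 fold change was -1.09 (SE 0.35, adjusted p = 0.089) and -0.68 without CG replicate 3. FZD1 was found at 7.78, 6.14 and 8.15 TPM in GF pigs, against 9.19, 11.7 and 8.85 TPM in CG pigs, a difference of -0.38 (SE 0.19, adjusted p = 0.21). FZD8 was found at 14.2, 7.71 and 6.74 TPM in GF pigs, against 15.4, 11.6 and 15.1 TPM in CG pigs, with GF replicate 1 inside the CG range (adjusted p = 0.21). FZD4, the receptor of the vascular ligand norrin, was found at 1.11 to 2.44 TPM in GF pigs, against 1.19 to 7.33 TPM in CG pigs, with the top value in CG replicate 3. FZD6, FZD2 and FZD9 had overlapping groups between 2.82 and 12.6 TPM, and their log2 fold changes were 0.10, -0.55 and 0.03 (adjusted p of 0.74, 0.18 and 0.94).

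Most markers of the hypothalamus were, like FZD5, lower in GF pigs. Within the CG pigs their orders differed. FZD5 was at 18.0, 23.7 and 41.2 TPM there, and the markers without OXT summed to 667, 904 and 644 TPM. In 21 of the 24 hypothalamus markers measured, every GF value was under every CG value, as in 32.8% of all tested genes. Of 23 tested, 12 fell in GF pigs (4.93% of all tested genes did), none rose and the median log2 fold change was -2.32. Among these 12, AGRP, SIX6, NR5A1, NKX2-4, BSX and KISS1 were under 1 TPM in every GF library. They were tested only because all CG libraries reached 1 TPM. The filter thus fixed their direction, and they lend the count of 12 no support. Markers of ependyma and tanycytes, the cells that line the third ventricle, summed to 165 to 327 TPM in GF pigs, against 386 to 914 TPM in CG pigs, although none of the 8 tested passed. CRYM and VIM carried most of these sums. The groups did not overlap for CRYM, but they did for VIM, CCDC153, FOXJ1, TEKT1, DNAH9, RSPH1 and DIO2. TEKT1 was nearly level, with means of 2.36 TPM in GF pigs, against 2.31 TPM in CG pigs. RAX, a transcription factor of tanycytes and the hypothalamic primordium, was listed at 0 in every GF pig, against 0.15, 1.24 and 2.51 TPM in CG pigs. GF replicate 1, with the lowest sum of hypothalamus markers (54.0 TPM), was also the lowest library for FZD5, RSPO2 and WNT11. The part of these markers in the values of FZD5, RSPO2 and WNT11 was not tested.

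The coreceptors LRP6 and LRP5 were lower in each GF library than in each CG library, without passing. LRP6 was found at 29.1, 27.1 and 33.3 TPM in GF pigs, against 45.0, 42.6 and 56.8 TPM in CG pigs. Its log2 fold change was -0.67 (SE 0.16, adjusted p = 0.052), and -0.42 with median-centred libraries. LRP5 was found at 11.4, 16.9 and 12.4 TPM in GF pigs, against 20.4, 17.3 and 25.4 TPM in CG pigs, and GF replicate 2 nearly met CG replicate 2 (a log2 fold change of -0.60, adjusted p = 0.11).

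Among the R-spondins, RSPO2 fell in GF pigs. RSPO2, a secreted protein that binds LGR receptors and the ligases ZNRF3 and RNF43, is annotated on chromosome 4 (29415774 to 29577890). It was found at 0.22, 1.33 and 1.18 TPM in GF pigs, against 3.90, 5.24 and 3.82 TPM in CG pigs. The groups were well apart, with means of 0.910 ± 0.602 TPM in GF pigs, against 4.32 ± 0.798 TPM in CG pigs (SD, n = 3 each), and the log2 fold change was -1.52 (SE 0.29, 95% interval -2.20 to -0.84, limma adjusted p = 0.041). With median-centred libraries it was -1.28. It missed the threshold under a pseudocount of 0.1, no filter, mitochondrial genes out of the scaling or median centring (adjusted p of 0.053 to 0.061), and with the replicate block. It also missed without any 1 library but GF replicate 2 (adjusted p of 0.071 to 0.16).

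RSPO3 lay the other way without passing, at 1.92, 4.03 and 2.45 TPM in GF pigs, against 0.85, 2.32 and 1.63 TPM in CG pigs (a log2 fold change of 0.55, adjusted p = 0.26). CG replicate 2 lay inside the GF range. The RSPO3 transcript ENSSSCT00000065461 was found at 0.83, 2.50 and 1.73 TPM in GF pigs, against 0, 0.11 and 0 TPM in CG pigs, and was under the level needed for the test. RSPO1 and RSPO4 were not tested. RSPO4 was found at 0.16, 0 and 0.39 TPM in GF pigs, against 0, 0 and 1.19 TPM in CG pigs, and RSPO1 was at most 0.45 TPM.

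**Figure D5:**
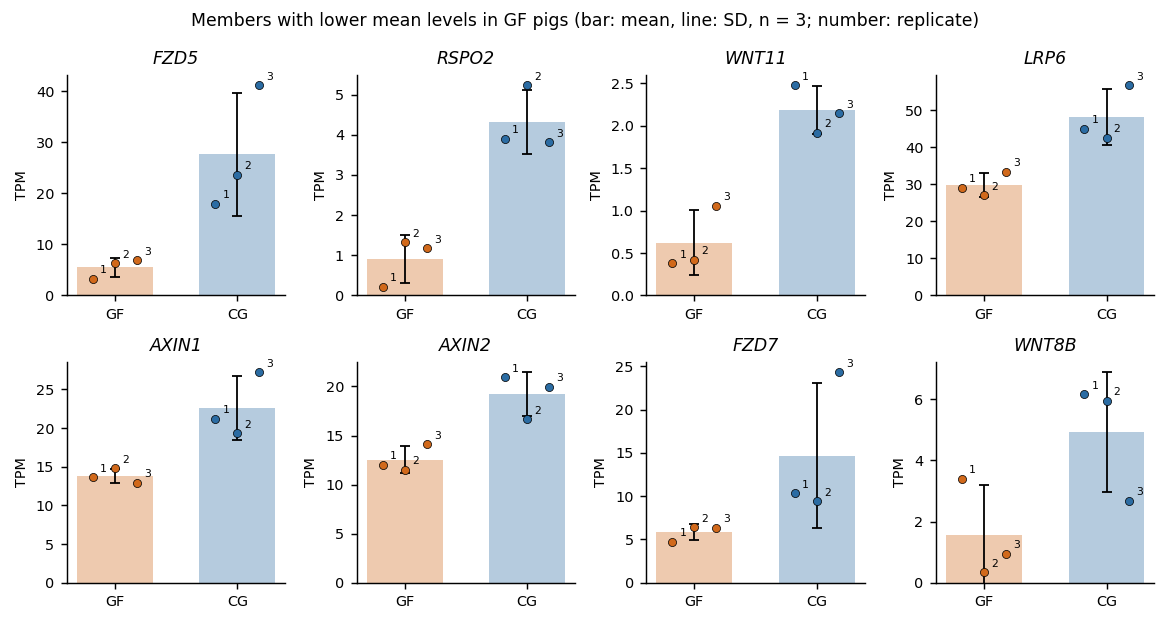
TPM from 0 of 8 Wnt genes with lower mean levels in GF pigs, as bars for the mean, lines for the SD and points numbered by replicate in GF and CG pigs (n = 3 each). For FZD5 the GF libraries lie at 3.28 to 6.86 TPM and the CG libraries at 18.0 to 41.2 TPM, and for RSPO2 the GF libraries lie at 0.22 to 1.33 TPM and the CG libraries at 3.82 to 5.24 TPM.

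None of the antagonists passed. SFRP2, the most abundant of the secreted Frizzled-related proteins, was nearly level at 68.5, 65.2 and 55.5 TPM in GF pigs, against 64.9, 65.0 and 69.9 TPM in CG pigs. Its log2 fold change was -0.08 (95% interval -0.38 to 0.21), and 0.16 with median-centred libraries. SFRP1 was found at 8.01, 10.8 and 9.65 TPM in GF pigs, against 10.2, 10.9 and 44.2 TPM in CG pigs. The group difference of SFRP1 lay in CG replicate 3, with a log2 fold change of -0.81 with all libraries (adjusted p = 0.32) and -0.15 without it. SFRP4 was found at 2.20, 2.35 and 1.64 TPM in GF pigs, against 3.39, 1.89 and 10.8 TPM in CG pigs, and its log2 fold change of -0.80 (adjusted p = 0.30) was -0.23 without that library.

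CG replicate 3 is the library with 5442 TPM of pituitary markers, and its fibroblast markers summed to 526 TPM, whereas the sum was 101 to 138 TPM in GF pigs, 155 TPM in CG replicate 1 and 189.7 TPM in CG replicate 2. Of the tested markers, 1 of 4 fell in GF pigs for the pituitary and 0 of 8 for fibroblasts, against 4.93% of all tested genes. At an unadjusted p under 0.05 limma gave 3 of the 8 fibroblast markers, against 30.9% of all tested genes, so this count does not set them apart. The part of these markers in the values of SFRP1, SFRP4, FZD4, FZD7, DVL2 and FZD5, which also had its top value there, was not tested. SFRP5 had its highest values in GF pigs, at 2.91, 2.07 and 0.95 TPM, against 0.72, 1.02 and 0.39 TPM in CG pigs. GF replicate 3 lay inside the CG range, and the log2 fold change was 0.76 (SE 0.30, adjusted p = 0.14).

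DKK1, the classical LRP blocker and a target of beta-catenin, was found at 0.25, 0.76 and 0.81 TPM in GF pigs, against 1.65, 2.13 and 1.30 TPM in CG pigs. It was tested only because all CG libraries reached 1 TPM, which no GF library did, and it did not pass (a log2 fold change of -0.75, SE 0.23, adjusted p = 0.086). DKK3 overlapped between the groups (a log2 fold change of -0.13, 95% interval -0.70 to 0.43, adjusted p = 0.74, and 0.11 with median-centred libraries). GF replicate 2 was the lowest library for DKK3, as it was for CTNNB1. DKK4 was at most 0.13 TPM.

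The Dishevelled and Axin genes, which pass the signal on in the cytoplasm, all lay below 0 and none passed. DVL1 was found at 40.4, 47.3 and 40.5 TPM in GF pigs, against 54.5, 59.2 and 56.1 TPM in CG pigs, with a log2 fold change of -0.40 (SE 0.12, adjusted p = 0.082), and -0.16 with median-centred libraries. DVL3 was found at 35.6, 36.2 and 31.5 TPM in GF pigs, against 39.9, 40.2 and 48.6 TPM in CG pigs (a log2 fold change of -0.31, adjusted p = 0.17, and -0.06 with median-centred libraries). In both the groups did not overlap. DVL2 was found at 12.9, 19.3 and 10.5 TPM in GF pigs, against 18.2, 14.7 and 39.6 TPM in CG pigs, with the highest value in CG replicate 3 (a log2 fold change of -0.64, and -0.23 without that library).

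AXIN1, the scaffold of the destruction complex, was found at 13.6, 14.8 and 13.0 TPM in GF pigs, against 21.2, 19.4 and 27.2 TPM in CG pigs (a log2 fold change of -0.66, SE 0.17, adjusted p = 0.059). AXIN2, its homologue and a widely used readout of beta-catenin activity, was found at 12.04, 11.5 and 14.1 TPM in GF pigs, against 20.9, 16.7 and 19.98 TPM in CG pigs. The groups of both Axins did not overlap. For AXIN2 the log2 fold change was -0.57 (SE 0.16, 95% interval -0.95 to -0.20, adjusted p = 0.071), and -0.33 with median-centred libraries.

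At the level of transcripts, 28 of the Wnt genes had 1 transcript and 19 had more, up to 5. Of the 77 transcripts, 47 were tested and 3 passed, both of FZD5 and the main one of RSPO2, all lower in GF pigs, whereas 7.54% of all tested transcripts passed (5.25% lower). Some minor transcripts varied between libraries more than their gene did. The DKK3 transcript ENSSSCT00000014641 was found at 4.98, 55.5 and 40.8 TPM in GF pigs, against 12.7, 36.1 and 0 TPM in CG pigs. The WNT7B transcript ENSSSCT00000044039 was found at 6.76, 8.89 and 7.19 TPM in GF pigs, against 6.13, 3.69 and 2.37 TPM in CG pigs, where the groups did not overlap and the difference of 0.83 did not pass (adjusted p = 0.13).

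The rest of the pathway was covered by 8 lists, with 111 further genes measured and 99 tested. Of these, 4 fell in GF pigs, none rose and 95 did not pass (4.04%, against the 6.01% of all genes), with a median log2 fold change of -0.31. The 4 were TLE2, TLE4, BCL9 and MYC. TLE2, a corepressor that binds TCF factors, was found at 7.49, 10.8 and 10.0 TPM in GF pigs, against 19.6, 19.5 and 25.2 TPM in CG pigs (a log2 fold change of -1.11, SE 0.19, adjusted p = 0.034). TLE4, of the same family, had a log2 fold change of -0.66 (SE 0.15, adjusted p = 0.048), with 34.4, 44.4 and 41.1 TPM in GF pigs, against 60.5, 58.7 and 71.6 TPM in CG pigs.

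BCL9, a coactivator that binds beta-catenin, was found at 23.4, 27.9 and 26.4 TPM in GF pigs, against 43.7, 43.5 and 39.6 TPM in CG pigs (a log2 fold change of -0.69, SE 0.13, adjusted p = 0.040). MYC, a growth regulator and the only one of 13 tested feedback and target genes to pass, was found at 12.9, 17.4 and 14.0 TPM in GF pigs, against 24.2, 27.0 and 29.0 TPM in CG pigs (a log2 fold change of -0.82, SE 0.16, adjusted p = 0.043). The groups of all 4 genes did not overlap, but each lost its call without any 1 library other than GF replicate 2, and with median-centred libraries. With no low-value filter BCL9 passed (adjusted p = 0.048), and TLE2, TLE4 and MYC did not (adjusted p of 0.0502, 0.060 and 0.053).

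The nuclear list, which held TLE2, TLE4 and BCL9, had 16 tested genes, and the 13 others did not pass. None passed among 8 genes of Wnt secretion, 13 other receptors, 6 genes of receptor turnover (3 of them the Dishevelled genes), 9 other antagonists, 20 genes of the destruction complex and 25 of planar polarity. CTNNB1, which encodes beta-catenin, was found at 381, 243 and 357 TPM in GF pigs, against 311, 320 and 322 TPM in CG pigs (a log2 fold change of 0.01, adjusted p = 0.97). LEF1, a TCF/LEF factor used in hypothalamic neurogenesis in mouse and zebrafish, was found at 34.3, 19.1 and 31.3 TPM in GF pigs, against 27.6, 26.1 and 16.6 TPM in CG pigs (adjusted p = 0.57). The CG values lay inside the GF range for CTNNB1, and for LEF1 in all but CG replicate 3.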

How the data were processed

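Long RNA of the hypothalamus of 3 GF and 3 CG pigs was analysed, and the 6 small RNA libraries of the 12 in the series were not used. The authors deposited TPM of mRNA and known lncRNA transcripts. The paper describes rRNA depletion, TopHat alignment to Sscrofa11.1, Cufflinks assembly and HTSeq for counts and TPM, while the submitters' processing notes name fastp, HISAT and RSEM, and which set made the deposited TPM was not settled.

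Transcript TPM were added up per gene. Log2(TPM + 1) was tested with limma 3.58.1 (limma-trend, R 4.3.3) on genes with at least 1 TPM in at least 3 libraries, with Benjamini-Hochberg adjustment over all tested genes. A gene passed at an adjusted p under 0.05, and the study's fold threshold (log2 of at least 1) was an alternative. Exact permutation of 3 against 3 cannot go below p = 0.10 and was not used. The limma step was tested on simulated data with normal noise. At each size of change, 100 of 14641 genes were changed, up and down equally. In the real data 30.9% of tested genes had an unadjusted limma p under 0.05, so the recovery there may differ. In the simulation limma recovered 42 of 100 genes changed by a log2 of 1 and 80 of 100 changed by a log2 of 2. A gene that did not pass is therefore not shown to be unchanged. Tables and figures were made with matplotlib 3.10.9, pandas 2.3.3 and numpy 2.4.6 in Python 3.11.15.

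Alternatives were a pseudocount of 0.1, no filter, mitochondrial genes out of the scaling, median-centred libraries, a replicate block, transcripts in place of genes and leaving out each library. Values in every library are given for members that passed, the 3 most abundant of each role, members over 1 TPM without overlap between groups, and AXIN2. From the 8 other Wnt lists they are given for genes that passed and for CTNNB1, TCF7L2 and LEF1. Further members, WLS and all single marker genes were named after their values were seen. Members and lists, with 15 lists of markers, were chosen with earlier results of these data known. No count test was possible on TPM.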

Additional observations from a re-analysis of the deposited data

Results flagged for a closer look

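A long noncoding transcript annotated under SFRP1, NONSUST012322.1, was measured outside the mRNA comparison and lay above the CG pigs. It was found at 7.73, 4.47 and 13.1 TPM in GF pigs (mean 8.44 ± 4.37, SD), against 2.29, 0 and 0 TPM in CG pigs (mean 0.763 ± 1.32, SD), with no overlap between the groups and no test.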

How the results depend on the processing

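Of the 36 tested Wnt genes, 3 passed. This count was 1 (FZD5) with a pseudocount of 0.1, no filter, mitochondrial genes out of the scaling, median-centred libraries or the replicate block, and 2 (FZD5 and RSPO2) with transcripts in place of genes or the fold threshold. With 1 library left out it was 0 to 4. By limma it was 0 without GF replicate 1, GF replicate 3, CG replicate 1, CG replicate 2 or CG replicate 3 (9 to 12 at an unadjusted p under 0.05), and 4 without GF replicate 2 (FZD5, RSPO2, WNT3 and WNT5A). Over all genes 880 passed, against 342 with no filter, 284 with mitochondrial genes out, 394 centred, 35 with the block, 1838 with transcripts, and 22 to 1337 with 1 library left out. Replicate numbers did not pair the pigs, since same-numbered pigs correlated at -0.024, 0.058 and -0.010 in their deviations, and no pig correlated best with its own number. The sign reversed in SFRP2 (0.0186 with mitochondrial genes out, 0.16 centred), FZD3 (0.0574 centred), DKK3 (0.11 centred) and WNT9A (0.0079 centred). Leaving out 1 library took SFRP2 over -0.14 to 0.0060, FZD3 over -0.41 to 0.0335, DKK3 over -0.27 to 0.14, FZD9 over -0.15 to 0.15, WNT7B over -0.0491 to 0.35, WNT9B over -0.0216 to 0.21 and CTNNB1 over -0.11 to 0.21. The cause of these changes was not tested. Counting error is not known for genes near 1 TPM such as WNT11 and DKK1, since TPM hold no depth.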
